A study of Mus musculus with 18 samples.

Results

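The genes described here are 38 type I interferon response genes, the classical interferon-stimulated genes together with the transcription factors and nucleic acid sensors that are themselves induced by interferon. They were taken by gene symbol from a fixed list, and each of the 38 symbols matched 1 of the 55487 gene identifiers in the deposited count table. RNA came from BV2 cells, an immortalised mouse microglial line, split into a nuclear and a cytoplasmic fraction. Cells were harvested untreated (0 h) or after 12 or 24 h in 10 µM oxyhemoglobin, the oxygen-carrying form of the blood pigment that microglia meet after bleeding into the brain. Each pairing of fraction and time was sequenced as 3 libraries, 18 in all, from 1 cell line cultured in serum-containing medium, and nothing in the labels says whether these came from separate cultures. No untreated group was kept for 12 or 24 h, so treatment and time in culture cannot be told apart.

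Type I interferons are secreted when sensors such as RIG-I, MDA5 or cGAS detect foreign or misplaced nucleic acid. They bind the IFNAR1/IFNAR2 receptor, and the kinases JAK1 and TYK2 then phosphorylate STAT proteins such as STAT2, which joins IRF9 in the factor ISGF3. ISGF3 binds the interferon-stimulated response element (ISRE) in the promoters of its target genes, whose products block viral RNA, mark proteins with ISG15 or feed back on the receptor. In microglia this programme is known from infection, ageing and injury.

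Promoter sequences are shown for 5 members that were higher in both fractions at 12 h and that hold an ISRE match before their start. The RefSeq promoter table (GRCm38.p6) held 29 of the 38 members, each with 250 bases before and 50 bases after the annotated start. The ISRE core was searched on both strands as GAAA, any 2 bases and GAAA again, which reads TTTC, any 2 bases and TTTC on the other strand. Matches are in capitals in the last 200 bases before the start, written 5′ to 3′ in the direction of transcription, and overlapping matches are merged.
Isg15 (chr4:156200819-156201018, reverse strand): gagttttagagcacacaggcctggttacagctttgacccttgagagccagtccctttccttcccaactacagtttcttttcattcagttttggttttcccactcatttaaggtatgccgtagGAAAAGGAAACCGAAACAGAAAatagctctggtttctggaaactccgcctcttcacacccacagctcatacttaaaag
Ifit1 (chr19:34640689-34640888, forward strand): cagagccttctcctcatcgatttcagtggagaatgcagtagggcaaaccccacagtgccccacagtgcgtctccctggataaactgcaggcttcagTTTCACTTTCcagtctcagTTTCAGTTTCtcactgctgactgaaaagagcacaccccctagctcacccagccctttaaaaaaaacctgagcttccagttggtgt
Ifit3 (chr19:34583329-34583528, forward strand): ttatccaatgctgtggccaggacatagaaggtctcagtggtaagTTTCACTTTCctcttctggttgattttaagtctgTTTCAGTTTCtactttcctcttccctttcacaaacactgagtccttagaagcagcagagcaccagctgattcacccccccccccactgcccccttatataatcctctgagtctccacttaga
Ifit3b (chr19:34607757-34607956, forward strand): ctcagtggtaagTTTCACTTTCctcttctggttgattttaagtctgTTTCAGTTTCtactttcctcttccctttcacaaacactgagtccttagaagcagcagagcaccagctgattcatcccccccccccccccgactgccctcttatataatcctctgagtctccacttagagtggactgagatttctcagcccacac
Rsad2 (chr12:26456453-26456652, reverse strand): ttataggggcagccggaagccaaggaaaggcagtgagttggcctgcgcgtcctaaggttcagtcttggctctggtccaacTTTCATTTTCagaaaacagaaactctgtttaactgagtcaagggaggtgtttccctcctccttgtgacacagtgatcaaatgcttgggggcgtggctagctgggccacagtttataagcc
Counting back from the last base before the start as −1, Isg15 held 3 overlapping matches that began at −78, −72 and −66. Ifit1 held matches that began at −104 and −85, Ifit3 at −156 and −122, Ifit3b at −188 and −154, and Rsad2 at −120. Ifit3 and Ifit3b are neighbouring paralogs on chromosome 19.

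Across the 29 members with a promoter, 13 (44.8%) held the ISRE core, against 1079 of 27025 genes (3.99%) over windows of the same 300 bases. The gamma-activated site, searched as TTCNNNGAA, which reads the same on both strands, was found in 9 members (31%) and in 9.55% of all genes, and 4 members held both motifs. A match is a description of the letters in this window and not a measured binding site.

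**Figure D1:**
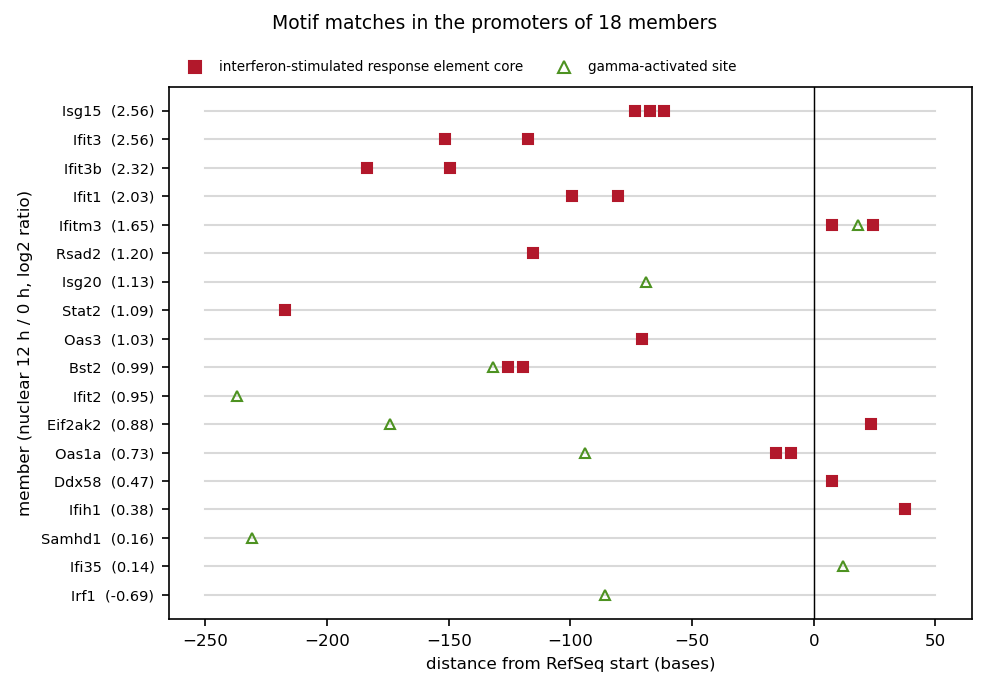
Position of motif matches relative to the RefSeq start (x axis, bases) in the 18 members with at least 1 match, ordered from top to bottom by the nuclear log2 ratio at 12 h against 0 h, given in parentheses. Squares are ISRE core matches and open triangles gamma-activated site matches; Isg15, Ifit3, Ifit3b and Ifit1 lead the order with 2 or 3 ISRE matches each, and Irf1 stands last at −0.69 with no ISRE match.

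Every value below rests on a deposited mean over 3 libraries, so no spread between libraries, p-value or test across cultures is given. Summed over 3 libraries, counts ranged from 14652566 to 16031875 in the nuclear groups and from 16537318 to 22379595 in the cytoplasmic groups. Levels are counts per 1000000 (CPM) after trimmed-mean (TMM) scaling within each fraction, and nuclear and cytoplasmic CPM are therefore on separate scales. Differences are log2 ratios of these levels with a 95% counting interval in brackets, which covers counting error only. A gene was tested where it reached the equivalent of 10 counts in at least 1 group, and a call of higher or lower needed a ratio of 2-fold or more with 0 outside the interval. Of the 38 members, 36 were tested in the nucleus and 32 in the cytoplasm. Isg20, Mx2 and Rsad2 in the cytoplasm and Ifih1 in the nucleus passed this filter only through their 12 h level. For these the filter itself favours a high 12 h ratio. Rtp4, a chaperone of receptor transport, and Zbp1, a sensor of Z-form nucleic acid, had at most 1 mean count in any group. Both were at 0 in both fractions at 0 and 24 h, where 3 reads, the floor used here, correspond to between 0.134 and 0.205 CPM. Mx1, Oas2, Irf1 and Trim25 had too few reads in the cytoplasm only.

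The table seemed to carry little signal from exonic bases that belong to more than 1 annotated transcript, which would bear on most members. Coverage per base was not available to check this. Among protein-coding genes, 1.49% reached 10 counts in the cytoplasm at 0 h where under 2% of the exonic bases belong to exactly 1 transcript. The share was 16.3% at 2 to 20%, 50% at 20 to 80% and 32.7% at 80% or more, so it did not rise throughout. The counting setting is not given in the sources used here. In 9 members at least 80% of the exonic bases belong to 1 transcript (Isg15, Ifit1, Ifit2, Ifit3, Ifit3b, Oas1a, Ifitm3, Herc6 and Eif2ak2), here called single-transcript members. In 25 members the share is 20 to 80%, and in Oas2, Oasl1, Rsad2 and Trim25 it is lower. For the last 2 sets the counts may come from part of the gene, so their levels are not compared with those of other genes. Ifit3 shares 51.2% of its 50-base runs with Ifit3b, and Oas1a shares 57.6% with Oas1g and Oas1b, so the split of reads within these pairs is uncertain.

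More interferon response genes were called higher than lower at 12 h in both fractions. In the nucleus, 10 of 36 tested members were higher at 12 h than at 0 h, none was lower (0), and the median log2 ratio was 0.73. In bulk RNA, a change in the number of responding cells and in RNA per cell cannot be told apart. Over all 17295 genes tested, 7.67% were higher, 6.88% were lower and the median was −0.01. In the cytoplasm, 10 of 32 members were higher, none was lower (0), and the median was 0.65, against 11.9% higher, 8.65% lower and a median of −0.02 over 11751 genes. The 10 include Isg20, Mx2 and Rsad2, which passed the filter there only through their 12 h level. On the deposited TPM values, taken as log2(TPM + 1), the cytoplasmic median of the members was −0.08, where that of all genes was −0.51. With total-count scaling, which moved the nuclear median of all genes to −0.21, 6 nuclear members were called higher at 12 h in place of 10. Of the calls over all nuclear genes, 52.7% were higher ones with TMM and 31.9% with total-count scaling. With a minimum of 50 mean counts, 6 cytoplasmic members were called higher at 12 h, and the share of all genes at that filter is not given here. On log2(TPM + 1), on which the median of all genes was −0.23 in the nucleus, the 12 h calls of Isg20, Oas3, Oasl1, Stat2 and Rsad2 were lost in the nucleus, with ratios of 0.41, 0.71, 0.99, 0.56 and 0.79. Those of Isg20, Mx2, Rsad2, Ifitm3 and Xaf1 were lost in the cytoplasm, with ratios of 0.21, 0.34, 0.31, 0.47 and 0.14.

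At 24 h against 0 h, 4 nuclear members (Isg15, Ifit3, Ifit3b and Ifitm3) were higher, 2 (Mx1 and Irf1) were lower and the median was 0.05, where 7.95% of all genes were higher and 5.72% lower. The nuclear median turned to −0.25 with total-count scaling, where that of all genes was −0.32, and to −0.48 on log2(TPM + 1), where that of all genes was −0.47. Of the calls over all nuclear genes at 24 h against 0 h, 58.1% were higher ones with TMM and 27.5% with total-count scaling. In the cytoplasm, 2 members (Sp100 and Isg15) were higher at 24 h, 3 (Irf7, Irf9 and Stat2) were lower and the median was −0.23, where 11.3% of all genes were higher and 5.83% lower. On log2(TPM + 1) the cytoplasmic median was −0.53, where that of all genes was −0.40. Among the 9 single-transcript members the medians at 24 h were 0.93 in the nucleus and 0.26 in the cytoplasm. On log2(TPM + 1) the 24 h calls were lost for Isg15 (0.96), Ifitm3 (0.75), Ifit3 (0.58), Ifit3b (0.50) and Mx1 (−0.92) in the nucleus and for Sp100 (0.64) and Isg15 (0.49) in the cytoplasm.

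From 12 to 24 h, 12 nuclear members were lower and 0 higher (median −0.77), against 1.12% lower and 1.95% higher among all genes, of whose calls 63.5% were higher ones with TMM and 44.2% with total-count scaling. In the cytoplasm, 12 members were lower and 0 higher (median −0.74), against 1.66% lower and 3.29% higher. The 3 time comparisons of a fraction share their groups and are not independent of each other. Of the 3 levels in the nucleus, that at 12 h was the highest in 31 of 36 members, and in 29.1% of all genes. In the cytoplasm the 12 h level was the highest in 26 of 32 members, and in 32.6% of all genes. These counts, and the cytoplasmic calls from 12 to 24 h, include members that passed the filter only through their 12 h level.

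Among the single-transcript members, 5 of 9 were higher at 12 h in the nucleus (median 1.65), against 12.2% of protein-coding genes of the same class (median 0.26). In the cytoplasm 5 of 9 were higher (median 1.22), against 9.42% (median 0.04). At 24 h against 0 h, 4 of 9 were higher in the nucleus, against 13.9% of the class, and 1 of 9 in the cytoplasm, against 8.17%. The other 27 members tested in the nucleus had a median of 0.65 at 12 h, with 5 higher, and the other 23 in the cytoplasm a median of 0.36, also with 5 higher.

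**Figure D2:**
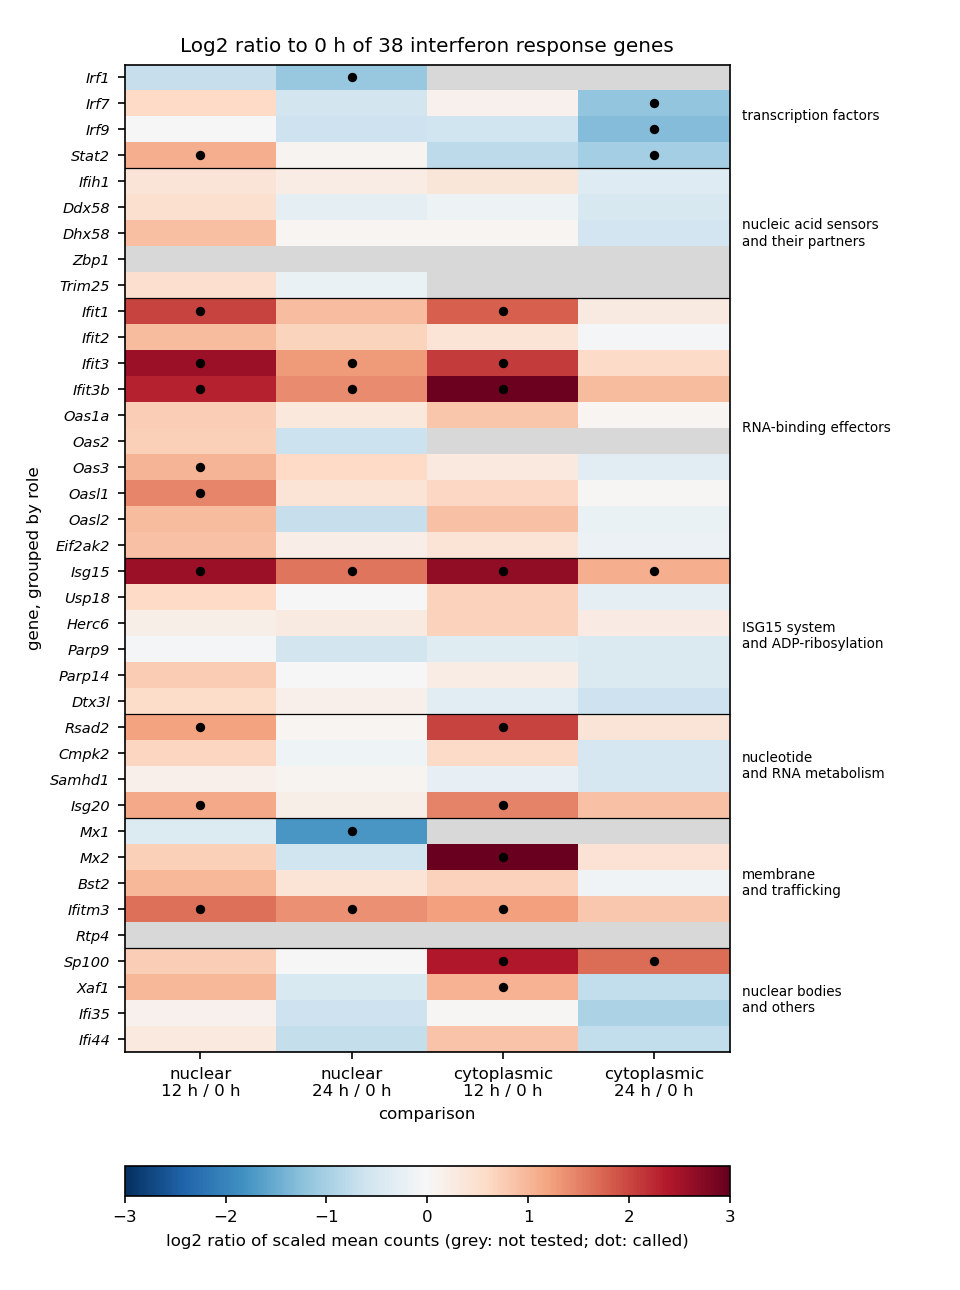
Heat map of the log2 ratio to 0 h (colour) of the 38 members (rows, grouped by role) at 12 and 24 h in each fraction (columns). Dots mark calls and grey cells genes not tested; dots gather in the 12 h columns at Ifit1, Ifit3, Ifit3b, Isg15, Rsad2, Isg20 and Ifitm3, and the 3 transcription factors tested in the cytoplasm are blue at 24 h.

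Of the 4 transcription factors, 1 was called higher at 12 h in the nucleus, and of the 3 tested in the cytoplasm 0 were. The shares over all genes were 7.67% and 11.9%. Stat2, a subunit of ISGF3, was at 12.1, 25.7 and 12.8 CPM at 0, 12 and 24 h in the nucleus and at 3.86, 2.24 and 1.91 CPM in the cytoplasm. The nuclear level was highest at 12 h, while the cytoplasmic level was highest at 0 h. Stat2 was higher at 12 h in the nucleus (1.09 [0.84, 1.34]) and lower at 24 h in the cytoplasm (−1.02 [−1.61, −0.45]), the latter on 12.7 mean counts at 24 h. The nuclear call was lost with total-count scaling (0.89), and none of the single-transcript bases of Stat2 lies in a coding transcript.

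Irf7, the master regulator that amplifies interferon production, was at 16.4, 24.9 and 11.2 CPM in the nucleus and at 72.3, 79.5 and 31.9 CPM in the cytoplasm. It was not called at 12 h (0.60 and 0.14) and was lower at 24 h in the cytoplasm, at −1.18 [−1.31, −1.05]. Irf9, the DNA-binding subunit of ISGF3, stood at 28.1, 27.9 and 18.4 CPM in the nucleus and at 5.91, 3.91 and 2.41 CPM in the cytoplasm. Its cytoplasmic level at 24 h was lower than at 0 h (−1.30 [−1.80, −0.81]). All 3 transcription factors tested in the cytoplasm were lower at 24 h, with a median of −1.18, and the calls of Irf9 and Stat2 were lost on log2(TPM + 1) (−0.76 and −0.52).

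Irf1, an early factor that also answers to interferon gamma, was at 12.9, 7.98 and 5.90 CPM in the nucleus. It had its highest level at 0 h and was lower at 24 h (−1.13 [−1.51, −0.76]). In the cytoplasm it had 2 to 3 mean counts per group.

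Of the nucleic acid sensors and their partners, none of the 4 tested in the nucleus or the 3 in the cytoplasm was called against 0 h at either time. Ddx58, which encodes RIG-I, was at 25.4, 35.3 and 20.7 CPM in the nucleus and at 11.6, 10.5 and 8.27 CPM in the cytoplasm. The nuclear level was highest at 12 h (0.47 [0.29, 0.66]) and the cytoplasmic level at 0 h. Only 3 of the 2803 single-transcript bases of Ddx58 lie in a coding transcript. Ifih1, which encodes MDA5, had 1.58, 2.06 and 1.85 CPM in the nucleus and 1.64, 2.11 and 1.25 CPM in the cytoplasm, with counting intervals that include 0 in every time comparison. Dhx58, which encodes the regulator LGP2, came closest to the threshold in the nucleus at 12 h, at 0.90 [0.67, 1.13], and stood at 0.07 in the cytoplasm. Trim25, a ubiquitin ligase that activates RIG-I, was at 12.4, 17.6 and 10.8 nuclear CPM.

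Of the RNA-binding effectors, 5 of 10 were higher at 12 h in the nucleus (median 0.99) and 3 of 9 in the cytoplasm (median 0.84). The shares over all genes were 7.67% and 11.9%. Ifit1, Ifit3 and Ifit3b are among the calls in both fractions, and Ifit3 and Ifit3b share sequence. Ifit1 recognises RNA that lacks the host cap mark (ENSMUSG00000034459, chromosome 19, 34640871 to 34650009). It rose from 10.7 to 43.9 nuclear CPM at 12 h and stood at 20.4 CPM at 24 h, and in the cytoplasm it was at 35.7, 124 and 42.8 CPM. The 12 h level was the highest in both fractions, 4.09-fold above 0 h in the nucleus (2.03 [1.79, 2.28]) and 3.48-fold in the cytoplasm (1.80 [1.68, 1.92]). From 12 to 24 h it fell by 1.10 in the nucleus and by 1.54 in the cytoplasm on the log2 scale.

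Ifit3, the binding partner that stabilises IFIT1 (chromosome 19, 34583531 to 34588731), was at 5.22, 30.7 and 12.6 CPM in the nucleus and at 25.5, 109 and 38.1 CPM in the cytoplasm. Its nuclear ratio at 12 h was 2.56 [2.22, 2.91] and its cytoplasmic ratio 2.09 [1.96, 2.23]. At 24 h it was still called higher in the nucleus (1.27 [0.90, 1.66], or 0.97 and not called with total-count scaling) and not in the cytoplasm (0.58). Its paralog Ifit3b was at 1.21, 6.05 and 3.22 nuclear CPM and at 4.17, 32.2 and 8.12 cytoplasmic CPM, with 12 h ratios of 2.32 [1.61, 3.09] and 2.95 [2.63, 3.28]. Ifit2 had a higher starting level, at 46.9, 90.6 and 74.7 nuclear CPM and 159, 213 and 152 cytoplasmic CPM, and its 12 h ratios of 0.95 and 0.42 were not called.

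The oligoadenylate synthetases make the signal that activates RNase L. Oas3 was at 117, 238 and 178 nuclear CPM, higher at 12 h by 1.03 [0.95, 1.11], or 0.83 and not called with total-count scaling. Its cytoplasmic levels of 407, 498 and 328 CPM gave a ratio of 0.29. Oasl1, a catalytically inactive relative, was at 11.9, 32.9 and 15.8 nuclear CPM, higher at 12 h (1.47 [1.23, 1.71]) and lower again at 24 h (−1.06 against 12 h).

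Oas1a was at 108, 178 and 134 nuclear CPM and at 186, 333 and 192 cytoplasmic CPM, with 12 h ratios of 0.73 and 0.84 that were not called. Oasl2 was at 42.7, 82.2 and 26.4 nuclear CPM and lower at 24 h than at 12 h in the nucleus (−1.64 [−1.81, −1.47]), as was Oas2 (−1.36) at 7.89, 13 and 5.07 CPM. Eif2ak2, the kinase PKR that halts translation on double-stranded RNA, was at 229, 420 and 262 nuclear CPM and at 382, 510 and 338 cytoplasmic CPM. Its 12 h ratios were 0.88 [0.82, 0.93] and 0.42 [0.37, 0.46], both under 2-fold.

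**Figure D3:**
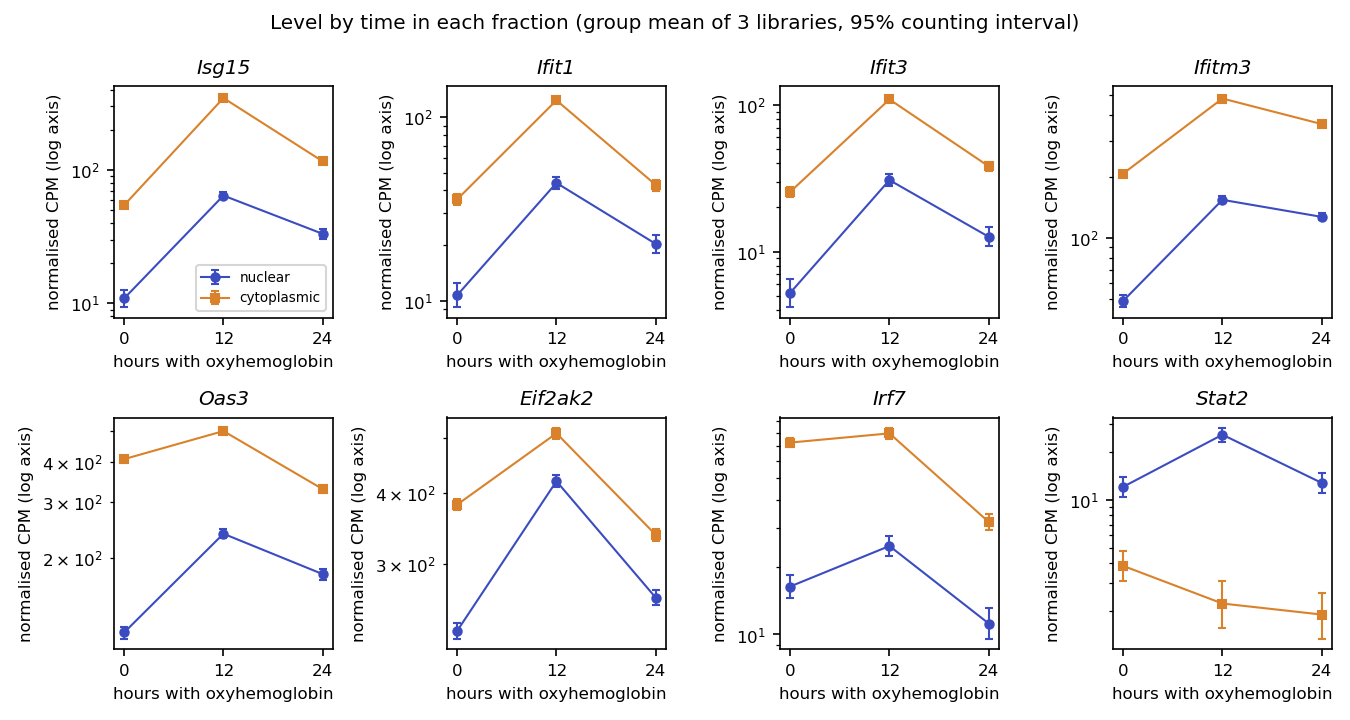
Normalised CPM (y axis, log scale) of 8 members at 0, 12 and 24 h (x axis) in the nuclear (circles) and cytoplasmic (squares) fractions, each on its own scaling; points are means over 3 libraries and bars 95% counting intervals. Isg15, Ifit1 and Ifit3 peak at 12 h in both fractions, while cytoplasmic Stat2 goes from 3.86 to 1.91 CPM.

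Isg15 encodes the ubiquitin-like modifier of the response (ENSMUSG00000035692, chromosome 4, 156199424 to 156200818). It was at 10.9, 64.3 and 33.2 CPM in the nucleus and at 54.5, 346 and 116 CPM in the cytoplasm. The 12 h level was the highest in both fractions, and both treated levels lay above 0 h. The ratio at 12 h was 2.56 [2.33, 2.79] in the nucleus (5.88-fold) and 2.67 [2.58, 2.76] in the cytoplasm (6.35-fold). It was still higher at 24 h in both, at 1.60 [1.35, 1.86] and 1.09 [0.99, 1.19].

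None of the enzymes of the ISG15 system or of ADP-ribosylation was called against 0 h. Usp18, which removes ISG15 and restrains the interferon receptor, was at 104, 157 and 104 nuclear CPM and at 168, 271 and 140 cytoplasmic CPM. Its ratios at 12 h, 0.59 [0.50, 0.68] and 0.69 [0.63, 0.75], were under 2-fold in each fraction. Herc6, the mouse ISG15 ligase, had ratios of 0.17 and 0.70. Parp9, Parp14 and the ubiquitin ligase Dtx3l act in ADP-ribosylation. Their 12 h ratios ran from −0.07 to 0.77 in the nucleus and from −0.36 to 0.23 in the cytoplasm.

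Of the genes of nucleotide and RNA metabolism, Rsad2, which encodes viperin (ENSMUSG00000020641, chromosome 12, 26442746 to 26456452), was at 19.4, 44.4 and 20.1 nuclear CPM and at 0.577, 2.36 and 0.752 cytoplasmic CPM. It was higher at 12 h in both fractions, at 1.20 [1.00, 1.39] and 2.03 [1.09, 3.06], and 28 of its bases are single-transcript bases in a coding transcript. The cytoplasmic values rest on 4.33, 12.7 and 5.00 mean counts. Isg20, an RNA exonuclease, was also higher in both, at 1.13 [0.46, 1.84] from 1.70 to 3.73 nuclear CPM and at 1.48 [0.47, 2.57] from 0.577 to 1.62 cytoplasmic CPM. Isg20 had 8.67 mean counts in the cytoplasm at 12 h. With total-count scaling the nuclear calls of Rsad2 (1.00) and Isg20 (0.93) were lost.

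Cmpk2, the mitochondrial nucleotide kinase beside Rsad2 in the genome, was at 28.9, 43.0 and 20.2 cytoplasmic CPM and lower at 24 h than at 12 h (−1.09 [−1.27, −0.91]). Samhd1, which degrades deoxynucleotides, had ratios to 0 h between −0.51 and 0.16 in the 2 fractions.

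Among the membrane and trafficking genes, Ifitm3, which blocks viral entry at endosomes, was at 49.2, 154 and 127 nuclear CPM and at 207, 483 and 362 cytoplasmic CPM. Both treated levels lay above 0 h in each fraction. The nuclear ratios were 1.65 [1.53, 1.76] at 12 h and 1.37 [1.25, 1.49] at 24 h, and the cytoplasmic ratios 1.22 [1.17, 1.28] and 0.81 [0.76, 0.86], the last of which was not called. Bst2, the tethering factor tetherin, had 12 h ratios of 0.99 [0.86, 1.12] and 0.68 [0.60, 0.75].

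Mx1, a dynamin-like GTPase that traps viral particles, was at 11.7, 8.81 and 3.5 nuclear CPM, highest at 0 h and lower at 24 h (−1.74 [−2.22, −1.29]), with 2.33 to 5.00 mean counts in the cytoplasm. Its relative Mx2 was at 11.3, 18.6 and 7.47 nuclear CPM. In the cytoplasm Mx2 had the highest 12 h ratio of the members, 2.97 [1.58, 4.70], from 0.222 to 1.74 CPM, which is 1.67 against 9.33 mean counts. Mx2 passed the filter there only through its 12 h level, so this rank depends in part on the filter. Only 2 of its single-transcript bases lie in a coding transcript.

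Of the remaining members, Sp100, a nuclear body protein, was at 36.9, 61.7 and 36.3 nuclear CPM and at 6.31, 33.4 and 20.2 cytoplasmic CPM. It was called only in the cytoplasm, 5.29-fold higher at 12 h (2.40 [2.13, 2.68]) and 3.20-fold at 24 h (1.68 [1.40, 1.96]). Xaf1, a pro-apoptotic factor, was higher in the cytoplasm at 12 h (1.04 [0.50, 1.59], or 0.99 and not called with total-count scaling) and lower from 12 to 24 h in both fractions (−1.45 and −1.78). Ifi44 was lower from 12 to 24 h in both, at −1.02 and −1.59, and Ifi35 in the cytoplasm (−1.0, or −0.93 and not called with total-count scaling).

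Per kilobase of exon, the 9 single-transcript members were set in order. The places of Oas1a, Ifit3 and Ifit3b are uncertain because they share sequence with other genes. In Herc6, 3384 of 9292 exonic bases are single-transcript bases in a coding transcript. In the cytoplasm at 0 h, Ifitm3 led with 305 CPM per kilobase, followed by Oas1a (98.5), Eif2ak2 (74.7), Isg15 (72.1), Ifit2 (40.4), Ifit3 (14.6), Ifit1 (13.5), Ifit3b (2.09) and Herc6 (1.68). At 12 h Isg15 stood at 458 CPM per kilobase, between Ifitm3 (712) and Oas1a (176), and Ifit3 stood at 62.3. At 24 h Ifitm3 was at 534, Isg15 at 153 and Oas1a at 102. Herc6 stayed between 1.68 and 2.73 at the 3 times.

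Of the 32 members tested in both fractions, 7 were higher at 12 h in each, namely Ifit1, Ifit3, Ifit3b, Ifitm3, Isg15, Isg20 and Rsad2, against 4.52% of 11085 genes. Isg20 and Rsad2 passed the cytoplasmic filter only through their 12 h level, so their place among the 7 depends in part on the filter. In 26 members both ratios lay above 0, in 2 below 0 and in 4 on opposite sides, where of 11077 genes 3875 had both above, 3280 both below and 3922 opposite signs. At 24 h against 0 h the members' counts were 10, 11 and 11. Across these members the nuclear and cytoplasmic ratios correlated with a Pearson r of 0.66 (n = 32), against 0.63 over 11077 genes. Genes are not independent replicates, and both fractions may come from the same dishes, which the labels do not state. Of these 7 members, 6 hold an ISRE match in their promoter, all but Isg20.

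Members with an ISRE match had a median nuclear ratio of 1.09 at 12 h, with 8 of 13 higher, and those without one a median of 0.57, with 2 of 16 higher. In the cytoplasm the medians were 0.84, with 6 of 13 higher, and 0.60, with 3 of 14 higher. Rsad2, with an ISRE match, and Isg20, without one, passed the cytoplasmic filter only through their 12 h level. Over all genes 7.67% were higher in the nucleus and 11.9% in the cytoplasm. Shares of all genes by motif are not given here. For the gamma-activated site the nuclear medians were 0.88 with a match (2 of 9 higher) and 0.84 without (8 of 20 higher). The cytoplasmic medians were 0.55 (2 of 8 higher) and 0.70 (7 of 19 higher). The matches in Ifitm3 begin at 3 and 20 bases after the start, inside the transcribed sequence, and the difference between members with and without a match was not tested.

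**Figure D4:**
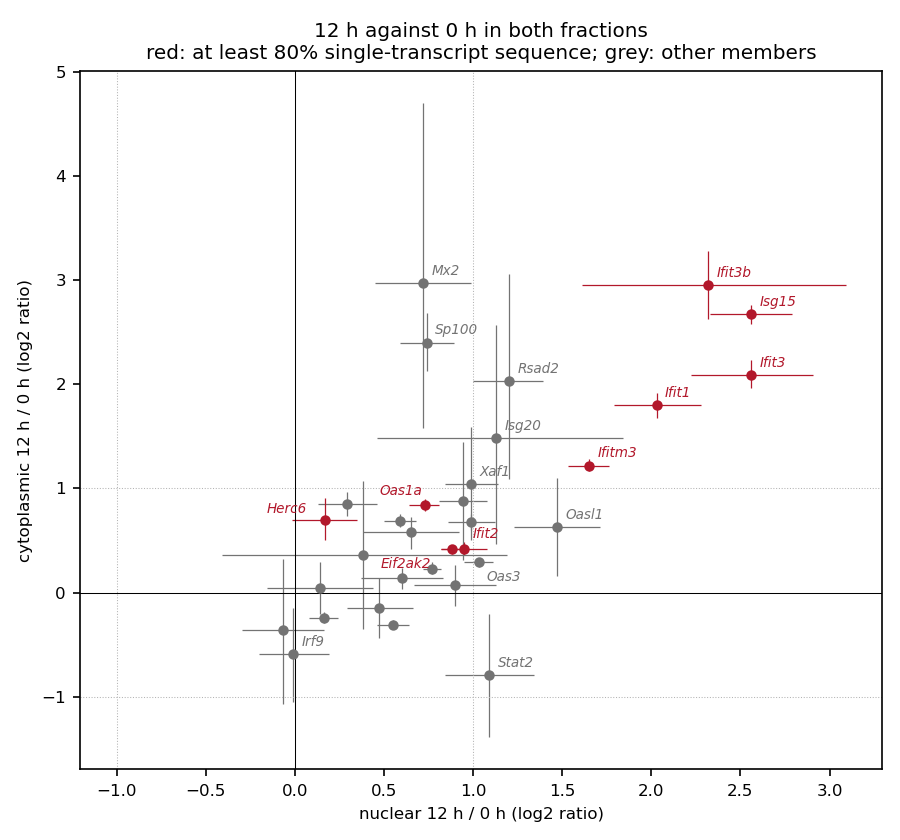
Log2 ratio of 12 h to 0 h in the nucleus (x axis) and in the cytoplasm (y axis) for the 32 members tested in both, with 95% counting intervals; red points are the 9 single-transcript members and dotted lines mark 2-fold. Isg15, Ifit3, Ifit3b and Ifit1 lie at the upper right, Mx2 and Sp100 high only in the cytoplasm, and Stat2 at 1.09 and −0.79.

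For the nuclear-to-cytoplasmic ratio, all 6 groups were scaled together, and a ratio is a share of each fraction's RNA and not of molecules per cell. At 0 h, 20 of 36 members were lower in the nucleus and 11 higher, with a median of −1.40, where all genes had 32.2% lower and 48% higher calls and a median of 0.84. With total-count scaling, which moved the median of all genes to 2.21, the members' median was −0.03, and calls over all genes were 78.9% nuclear in place of 59.8%.

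Isg15 (−3.53 [−3.76, −3.30]), Ifit3 (−3.50), Irf7 (−3.35) and Ifitm3 (−3.28) were the most cytoplasmic members at 0 h. Mx2 (4.46 [3.21, 6.10]), Irf1 (4.39), Rsad2 (3.86) and Trim25 (3.46) were the most nuclear. The latter 4 rest on 1.67 to 4.33 mean cytoplasmic counts.

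Across members, this ratio went with the share of single-transcript bases (Pearson r −0.65, n = 36 genes), as it did over 11016 protein-coding genes (r −0.33). Among the 9 single-transcript members, 8 were lower in the nucleus, all but Herc6, with a median of −2.97, against 65.5% of protein-coding genes of that class (median −1.92). Irf7 (−3.35), Cmpk2 (−2.54) and Dtx3l (−3.19) were cytoplasmic with shares of 34.2%, 32.5% and 61%, and Xaf1 was nuclear (2.76) with a share of 79.8%.

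**Figure D5:**
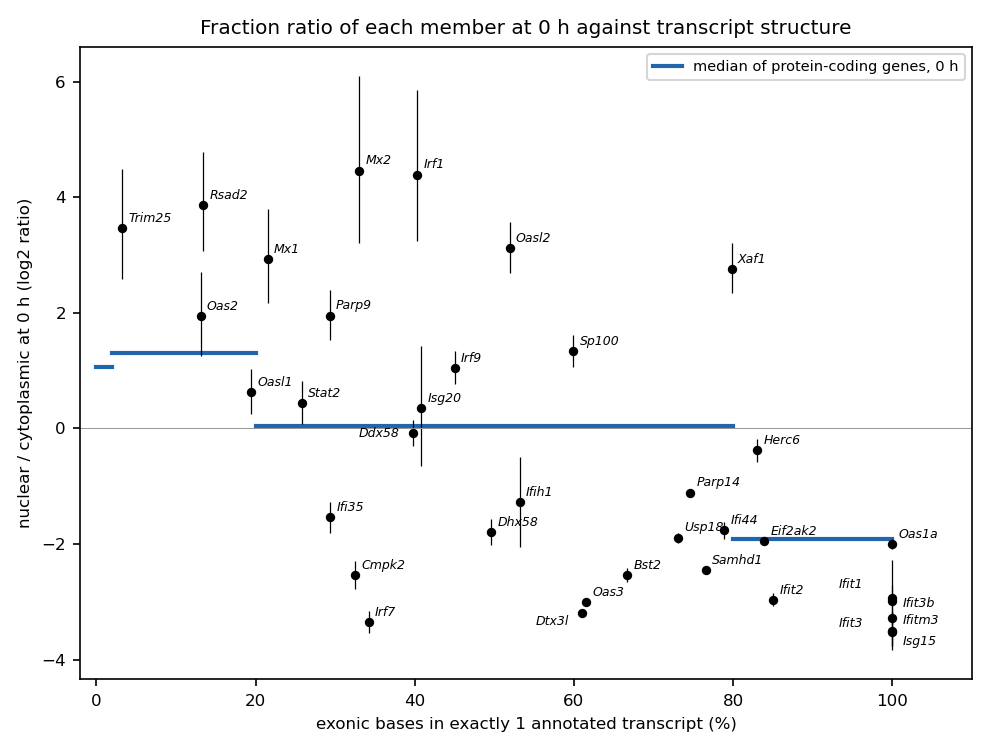
Nuclear-to-cytoplasmic log2 ratio at 0 h (y axis, with 95% counting intervals) of 36 members against the percentage of their exonic bases that belong to exactly 1 annotated transcript (x axis). Blue lines are medians of protein-coding genes in 4 bands of that percentage, from 1.06 in the lowest to −1.92 in the highest; Isg15 and Ifit3 lie lowest at the right edge, and Mx2 and Irf1 highest.

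At 12 and 24 h the members' medians were −1.06 and −0.91, with 12 members more nuclear and 18 more cytoplasmic at each time, where 45.7% of all genes were more nuclear and 30.2% more cytoplasmic at 12 h, and 44.9% and 30% at 24 h. With total-count scaling these medians turned to 0.11 and 0.12, where those of all genes were 1.94 and 1.72, and the nuclear share of all calls went from 60.2% to 80.3% at 12 h and from 59.9% to 78.9% at 24 h. The change of the ratio from 0 to 12 h had a median of 0.20, with 1 member higher and 3 lower, against 0.18, 7.43% and 7.48% over all genes. From 0 to 24 h it was 0.38, with 1 higher and 1 lower, against 0.07, 6.08% and 9.46%. With total-count scaling the share of higher calls over all genes went from 49.8% to 29.3% at 12 h and from 39.1% to 10.1% at 24 h, and no member was higher at 24 h (0). These changes use the same libraries as the time comparisons above.

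Stat2 became more nuclear, by 1.92 [1.30, 2.53] at 12 h and 1.12 [0.50, 1.74] at 24 h. Sp100 became more cytoplasmic, at −1.62 [−1.93, −1.32] and −1.69 [−2.01, −1.37]. Mx2 (−2.21 [−3.61, −0.81]) and Irf1 (−1.72 [−3.24, −0.19]) were called more cytoplasmic at 12 h on few cytoplasmic reads. None of the 9 single-transcript members was called at either time, and their changes ran from −0.59 to 0.74.

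The remaining genes of the pathway were followed in 5 lists. Of 21 interferon ligand genes, 14 were listed at 0 in every group. Ifnb1, the beta interferon, had 2, 0.333 and 2.67 mean counts in the nucleus and 0.333, 2 and 2.67 in the cytoplasm. Ifnk alone reached 10 counts, with 23.0, 16.3 and 24.0 in the nucleus, and was not called at either time. Counts this low cannot show small changes.

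Of 11 receptor and transducer genes, 0 were called higher in the nucleus at 12 h among 10 tested (median 0.15), and in the cytoplasm 2 were higher and 1 lower among 8. For this and the following lists, the share of all genes called higher at 12 h is the same 7.67% in the nucleus and 11.9% in the cytoplasm, with 6.88% and 8.65% lower. Ifnar1 was at 44.6, 55.8 and 46.9 nuclear CPM and at 52.4, 48.5 and 37.3 cytoplasmic CPM, and was not called. Ifnar2 was at 9.41, 7.91 and 5.96 nuclear CPM and at 2.31, 5.84 and 5.36 cytoplasmic CPM. It was called higher in the cytoplasm at 12 h (1.34 [0.83, 1.86]) and at 24 h (1.22 [0.72, 1.72]).

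Il10rb, a shared chain of the interferon lambda receptor, was also higher there at 12 h (1.58), and the kinase Tyk2 was lower (−1.32). Only 12 of the single-transcript bases of Il10rb lie in a coding transcript. Its cytoplasmic ratio rests on 14 and 30 mean counts at 0 and 12 h, and its nuclear ratio was 0.21. Jak2 was listed at 0 throughout, and 0.0795% of its exonic bases belong to 1 transcript.

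Of 21 upstream sensor and adaptor genes, 2 of 18 were higher in the nucleus at 12 h and 0 lower, and 1 of 15 in the cytoplasm, counts near those shares. They were Tlr9, the receptor for unmethylated DNA, from 60.3 to 209 nuclear CPM (1.79 [1.69, 1.90]) and from 43.2 to 87.5 cytoplasmic CPM (1.02), and the adaptor Ticam1 in the nucleus (1.22). Of 18 negative regulators, 2 of 15 were higher in the nucleus at 12 h, and 1 of 14 was higher and 3 lower in the cytoplasm. Socs3, an inhibitor of JAK kinases, was higher in both, from 47.2 to 315 nuclear CPM (2.74 [2.63, 2.85]) and from 68.7 to 467 cytoplasmic CPM (2.77 [2.69, 2.85]). Tnfaip3 was higher in the nucleus (1.67).

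Of 85 further interferon-induced genes, 23 of 68 were higher in the nucleus at 12 h and 0 lower (median 0.55), and 15 of 58 in the cytoplasm, also with 0 lower (median 0.47). Ifi205, Znfx1, Oas1b, Oas1g and Parp11 in the cytoplasm, and Slfn5 and Trim30c in the nucleus, passed the filter only through their 12 h level. For such genes the filter itself favours a high 12 h ratio and a fall to 24 h. From 12 to 24 h, 8 of 68 were lower in the nucleus and 14 of 58 in the cytoplasm, with 0 higher in either. The cytoplasmic count includes Ifi205 and Znfx1, so it depends in part on the filter. Among all genes, that step gave 1.12% lower and 1.95% higher calls for the nucleus, and 1.66% and 3.29% for the cytoplasm. Slfn1, a Schlafen family gene, had the highest 12 h ratio in both, at 3.13 [2.26, 4.13] and 3.15 [2.59, 3.75]. The chemokine gene Cxcl10 went from 0.972 to 6.17 nuclear CPM at 12 h (log2 ratio 2.67), on 5.33 and 32 mean counts. In the cytoplasm it was at 1.38, 2.48 and 3.91 CPM at 0, 12 and 24 h, highest at 24 h. Only 7 of its single-transcript bases lie in a coding transcript.

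Markers of microglia and macrophages summed to between 798 and 1104 nuclear CPM and between 597 and 815 cytoplasmic CPM, with 10 of 12 genes reaching 10 counts, none at 0 in all 6 groups, and C1qa, Aif1, Tyrobp and Fcgr3 at or under 2.73 CPM in every group. Of 5 genes used as plasmacytoid dendritic cell markers, 4 reached 10 counts, and the list summed to between 270 and 288 nuclear CPM and between 254 and 343 cytoplasmic CPM. The list includes the member Bst2, and its other detected genes are not restricted to that cell type. Siglech was listed at 0 in all groups, and only 2.9% of its exonic bases belong to 1 transcript. The part of other cell types in the members' values was not tested. The heart muscle gene Actc1 was at 22.9 CPM and the 3 fibroblast markers summed to 5.28 CPM in the cytoplasm at 12 h, and both lists were at or under 0.48 CPM in every other group. Their part in the cytoplasmic result at 12 h was not tested. The 5 nuclear RNA markers summed to between 59741 and 75872 CPM in the nucleus and to between 2423 and 4101 CPM in the cytoplasm. For 5 cytoplasmic mRNA markers the sums were 1533 to 2771 and 7768 to 11058 CPM. For 3 mitochondrial RNAs they were 2087 to 3027 and 26172 to 40303 CPM. Gapdh, of the cytoplasmic list, had a nuclear-to-cytoplasmic log2 ratio of 1.58 at 0 h, while the rest of that list lay between −4.43 and −3.51. An unnamed gene took 16.3% to 22.1% of the nuclear counts.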

How the data were processed

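RNA of nuclear and cytoplasmic fractions was sequenced from 18 libraries, 3 in each of 6 groups, made by tagmentation per the labels' protocols. The submitters' processing notes name HISAT2 2.2.0, featureCounts and DESeq2 as tools and GRCm38 as the build. Neither a strand setting nor an annotation release is given in the sources used here. In the deposited count table each column holds the authors' mean counts for each group, estimated counts that need not be whole (every value times 3 was whole within 0.001). The deposited TPM values follow from these counts and the summed length of all transcripts of a gene (98% of 6652 genes within 0.1%). The number of per-sample columns not used was 0. The tests planned for replicated counts were replaced by counting intervals because only group means were analysed.

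Counts were scaled by TMM (trims of 30% and 5%) over genes reaching 10 mean counts at median depth, within each fraction for time and over all 6 groups for fraction ratios. Intervals are exact Clopper-Pearson 95% intervals of the summed reads, with a normal approximation for changes of a ratio. PCR duplicates are not independent molecules, so intervals cover counting error only. Symbols and transcript structures came from GENCODE M21. Scripts ran under Python 3.11.15, with figures by matplotlib 3.10.9 and intervals by scipy 1.17.1, on pandas 2.3.3 and numpy 2.4.6, and were tested on simulated data.

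The members and lists were chosen with earlier results of these data known. Levels are given for 16 set members and for the 4 most nuclear and 4 most cytoplasmic members at 0 h. They are also given for many members called in a time comparison (up to 8 by size, with at least 10 mean counts in the higher group). Some of these levels cover only part of the groups or are given as mean counts. Other members are given by ratio or range, and a few called members with fewer reads are named with their counts. Alternatives changed the scaling, the filter, the threshold, the members used and the values (log2(TPM + 1)). The result of 1 gene of the pathway lists is not reported here.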

Additional observations from a re-analysis of the deposited data

Results flagged for a closer look

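In 3 members the ratios to 0 h had opposite signs in the 2 fractions, in part with 1 ratio near 0, and the change of the nuclear-to-cytoplasmic ratio was at least 2-fold with a counting interval that excludes 0. Opposite signs alone were common, in 3922 of 11077 genes at 12 h and in 4203 at 24 h. Called ratio changes were higher in 7.43% and lower in 7.48% of all genes at 12 h, and in 6.08% and 9.46% at 24 h. The share of all genes that meets both conditions was not counted. Stat2 changed by 1.92 at 12 h and by 1.12 at 24 h on the log2 scale, towards the nucleus. Its nuclear ratio at 24 h was 0.09, and −0.22 with total-count scaling, where both fractions then lie below 0. Sp100 changed by −1.69 at 24 h, towards the cytoplasm, with nuclear levels of 36.9 and 36.3 CPM at 0 and 24 h. Irf1 changed by −1.72 at 12 h, on 2 to 3 mean cytoplasmic counts, too few for a test in that fraction. These differences rest on counting error alone and were not tested across cultures.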

How the results depend on the processing

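No paired analysis was possible because the table holds 1 mean per group and carries no replicate numbers, and for the same reason no library could be left out. Counts below are of members called. With total-count scaling, 6 were higher in the nucleus at 12 h, 4 were lower at 24 h (median −0.25), and the fraction ratio had 12 members more cytoplasmic at 0 h and 10 at 24 h, with medians of −0.03, 0.11 and 0.12 at 0, 12 and 24 h. No member's ratio change was then higher at 24 h (0). With median-of-ratios factors the fraction medians were −1.82, −1.45 and −1.22, and 2 ratio changes were higher at 24 h. On log2(TPM + 1) the medians were 0.39 and −0.48 in the nucleus (12 and 24 h against 0 h) and −0.08, −0.53 and, against 12 h, −0.41 in the cytoplasm. Of all calls over genes, TPM left 31.7%, 12.8% and 9.31% higher in the 3 nuclear comparisons and 15.5% and 21.6% in the cytoplasmic ones against 0 h, where TMM gave 52.7%, 58.1%, 63.5%, 58% and 66%.

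With a 1.5-fold threshold, the nucleus had 24 higher and 1 lower at 12 h, 7 and 8 at 24 h, and 25 lower from 12 to 24 h. The cytoplasm had 17 and 2, 4 and 7, and 22 lower, and the ratio change 7 and 10 higher at 12 and 24 h. With a 3-fold threshold these were 5 higher, then 1 and 1, and 1 lower in the nucleus, 1 higher and 0 lower at 24 h and 5 lower from 12 to 24 h in the cytoplasm, and 0 ratio changes higher at 24 h. With a minimum of 50 counts the cytoplasm had 6 higher at 12 h, 1 lower at 24 h and 7 lower from 12 to 24 h, and the fraction medians were −1.13 at 0 h and −0.78 at 12 h. Without the filter, 3 and 2 ratio changes were higher at 12 and 24 h. Shares of all genes at these thresholds and filters are not given here, so the counts show only how the members' calls moved.

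Without members that share sequence, 2 nuclear members were higher at 24 h and the fraction medians were −1.11 at 0 h and −0.64 at 24 h. Among the 9 single-transcript members, a set chosen after seeing the data, the medians were 1.65 and 0.93 in the nucleus, 1.22 and 0.26 in the cytoplasm, and −2.97, −2.67 and −2.26 for the fraction ratio. The causes were not tested. Of 204 single ratios of members, 204 kept their call, or their lack of one, with median-of-ratios factors, 191 with total-count scaling and 161 with TPM. No called ratio changed sign under these 3, while over all 204 the sign differed in 0, 14 and 38. Mean counts under 10 limit Irf1, Mx1, Mx2, Rsad2 and Isg20 in the cytoplasm.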
